A study of Mus musculus with 12 samples.

Results

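Peritoneal macrophages that had been drawn into the abdominal cavity of C57BL/6 mice by an injection of thioglycollate (TG) were cultured with or without the protein SPARC, and their polyadenylated RNA was sequenced. The comparison described here takes the 6 TG libraries of the series' 12: 3 wells given SPARC at 20 µg/ml for 24 h and 3 wells left untreated, chosen by their labels alone. The mice had received 3% thioglycollate by 1 intraperitoneal injection 4 days before the lavage with 7 ml of saline. Cells were plated at 3000000 per well and washed after 2 h to keep the attached ones. The other 6 libraries come from mice given IL4c, that is 5 µg of interleukin 4 bound to 25 µg of an antibody that prolongs its action, in 2 injections, and were cultured in the same way with SPARC (n = 3) or without (n = 3). The labels give no age or sex, name no vehicle for the untreated wells and no source for the SPARC, and do not say whether replicates came from separate mice, so p-values reflect only how much these wells varied. The labels name the strain and no altered gene.

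SPARC (secreted protein acidic and rich in cysteine, osteonectin) is a matricellular glycoprotein: it binds collagen and calcium and modulates how cells deal with their matrix, without being a structural part of it. Thioglycollate is a sterile irritant that recruits monocytes, and these mature in the peritoneum into phagocytic inflammatory macrophages. Activated macrophages are known to change much more than their cytokines: they switch iron from recycling to storage, release protease inhibitors and matrix enzymes, reroute arginine, and exchange one set of uptake receptors for another. Those functions, outside the interferon, NF-kB and glycolytic programmes, are described below. Genes matched by symbol to interferon-stimulated families, cytokine, chemokine and TNF families, H2 genes, NF-kB genes or glycolysis are called the reference families. For rankings they were set aside together with mitochondrially encoded genes and with genes that have only a provisional symbol (such as Gm or Rik symbols), which made up 2592 of the 2917 tested genes set aside. The match was incomplete: Ifng, Il17f, Ifnar2, Eno1b and Gapdh-ps14, for example, were not set aside and count among the steady rises below.

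Total counts ran from 32104198 to 38543976 in the 6 TG libraries, and 15232 genes passed the minimum for testing. Levels are given in CPM, a count scaled by the depth of its library, and always in the order of replicates 1, 2 and 3. A gene was called when its adjusted p was under 0.05 in edgeR's quasi-likelihood test on the 12 libraries, with log2 fold changes of SPARC over untreated given ± standard error. SPARC raised 1025 genes (6.73% of those tested) and lowered 689 (4.52%), with 4049 at an unadjusted p under 0.05. Replicate 1 of both groups stood apart: the leading component of the 6 TG libraries, 53.2% of the variance, set untreated 1 and SPARC 1 against the other 4, and the next, 31.5%, set SPARC against untreated. Libraries with the same number deviated together, but those numbered 2 and 3 did so nearly as much across numbers. A fit with the number as a block called 2175 rises (14.3%) and 1990 falls (13.1%). The counts also moved with single libraries: without untreated 3 there were 475 rises and 262 falls, without untreated 2 there were 698 and 369, without SPARC 2 there were 685 and 285, without SPARC 3 there were 677 and 288, without SPARC 1 there were 847 and 382, without both libraries numbered 1 there were 1343 and 917, and without IL4c SPARC 1 there were 904 and 468. Scaling to total counts in place of TMM turned the split around, to 758 rises and 938 falls.

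A gene is therefore called steady here when its call held in the main test, with the block, and in each of the 6 fits that left out 1 TG library. That left 422 steady rises (2.77% of tested genes) and 184 steady falls (1.21%), and in each of these 606 genes the 3 SPARC libraries did not overlap the 3 untreated ones. Over all 15232 tested genes, 2473 (16.2%) had every SPARC library above every untreated one and 2162 (14.2%) below. The steady calls rest on the same libraries, so a lack of overlap adds no separate evidence for them, here or for single genes below. Of the 606, 603 were also called without both libraries numbered 1, 604 with DESeq2 (which gave no adjusted p for the other 2, Lcn2 and Igf2bp1), 598 with total-count scaling and 573 in a blocked fit on the TG libraries alone. A fit on the 6 TG libraries alone without the block called 362 of them, and among the steady genes with values below it missed Lcn2, Smpdl3b, Sod2, Prdx5, Prdx6, Fth1, Abca1, Scd2, Bsg, Plod3, Adam17, Narf, Keap1, Batf2, Maff, Elk3, Eif4e, B2m, Psma5, Psma6, Psma7, Psmc1, Ssr2, Cbr2, Gas6, Cd300a, Dbp, Nr1d1, Nat8l, Sepp1, Timp2, Cyp27a1, Pla2g15, Ulk2 and Dock2, with adjusted p from 0.0546 to 0.0969. Without the genes set aside, 284 steady rises and 169 steady falls remained among 12315 tested genes; 14 of the 15 steady falls taken out had provisional symbols. Within the same replicate number, the median log2 ratio of those rises was 0.99, 0.96 and 1.02, and of those falls -1.04, -0.71 and -0.79. Larger changes were mostly rises: 277 called rises and 153 called falls among those 12315 genes were at least 2-fold. The plot of fold change against level shows both sets across the whole range of abundance.

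**Figure D1:**
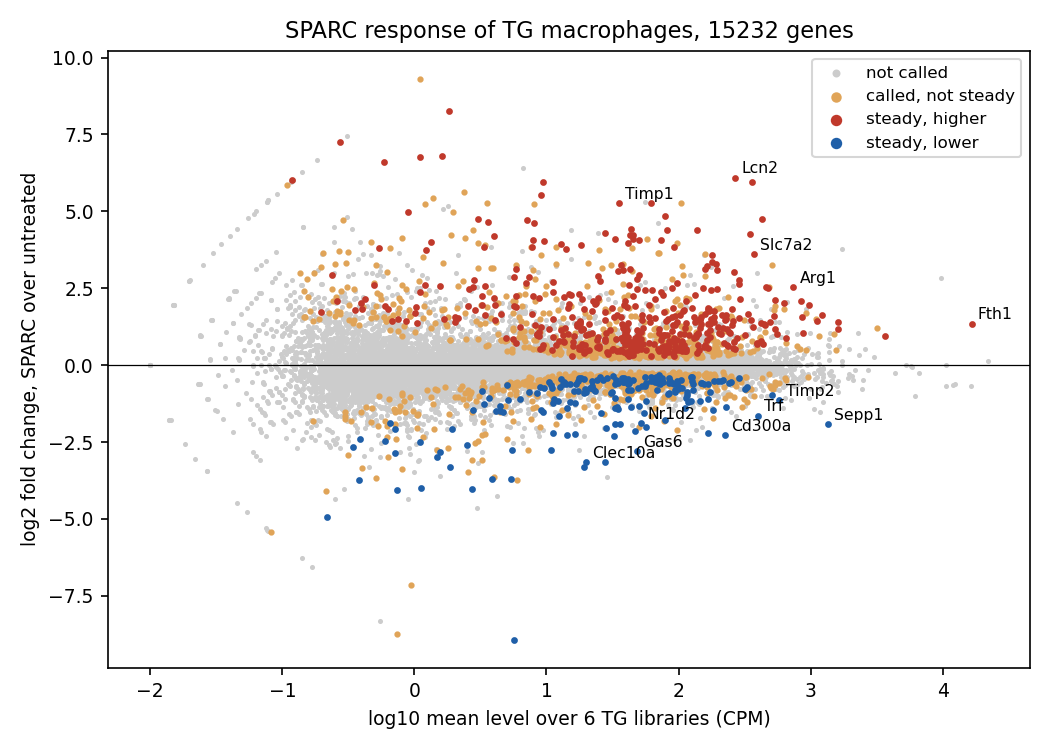
Log2 fold change of SPARC over untreated against the log10 of the mean CPM over the 6 TG libraries, 1 point per tested gene. The 422 steady rises are red, the 184 steady falls blue, other called genes orange and genes not called grey. Fth1 is the most abundant of the labelled genes and Sepp1 the most abundant labelled fall.

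As labelled, the cells carried macrophage markers at high levels. Lyz2 (lysozyme) ran from 14485 to 25746 FPKM over the 6 libraries, Cd68 from 891 to 1925 and Adgre1 (F4/80) from 236 to 594. Other cells were present in small and unequal amounts. The summed level of 17 B cell genes was 3338 CPM in untreated 1 and 2507 CPM in SPARC 1, against 311 to 444 CPM in the other 4 libraries. A list of 16 mesothelial and fibroblast genes went the other way, at 7.40, 155 and 134 CPM untreated and 35.5, 203 and 231 CPM with SPARC. The sum of 12 neutrophil genes was 206 to 360 CPM untreated and 233 to 440 CPM with SPARC, mostly Csf3r and Mmp8, while neutrophil-defining S100a9 and Ly6g had at most 3 counts in any library. These went opposite ways: Mmp8 was 33.4 to 40.8 CPM untreated and 63.2 to 234 CPM with SPARC. Csf3r, 63.4% of the sum, was 165.7 to 307.5 CPM untreated and 140 to 152.5 CPM with SPARC. The sum of 17 eosinophil and mast cell genes was 10.1 to 26.0 CPM untreated and 4.77 to 16.3 CPM with SPARC, with Il5ra at up to 859 counts and Prg2, Epx and Cpa3 at most 8. In bulk RNA, fewer cells of a type and less RNA per cell cannot be told apart.

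Among genes not set aside and with a mean of at least 10 CPM, the 10 steepest steady rises included several secreted proteins. Lcn2 (lipocalin 2, chr2:32384633-32388252, minus strand, GRCm38) encodes a protein that captures iron-laden siderophores. Its level was 18.9, 1.82 and 2.50 CPM untreated and 1215, 172 and 209 CPM with SPARC (log2 fold change 6.10 ± 1.17, adjusted p = 0.0114). Replicate 1 was the highest library on each side, and every SPARC library stood far above every untreated one; without SPARC 1 the log2 fold change was 4.68 and without untreated 1 it was 7.91. Timp1 (chrX:20870166-20874735, plus strand), an inhibitor of matrix metalloproteinases, went from 1.58, 1.72 and 2.08 CPM to 94.8, 53.0 and 57.9 CPM (log2 fold change 5.26 ± 0.47, adjusted p = 3.51e-04). Inhba, the activin A subunit of the TGF-beta family, rose from 0.636, 1.75 and 2.34 CPM to 20.0, 19.7 and 32.8 CPM (3.94 ± 0.50). None of these genes overlapped between the groups. C1ra, a complement protease, rose from 18.4, 11.2 and 6.96 CPM to 91.8, 84.6 and 79.3 CPM (2.81 ± 0.32); mouse C1ra has a near-identical copy, C1rb, and reads may be split between them.

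Others among the 10 act mostly at the cell surface. Clmp (chr9:40685962-40785319, plus strand), an adhesion molecule of cell junctions, rose from 7.31, 7.98 and 9.69 CPM to 164, 126 and 128 CPM (log2 fold change 4.07 ± 0.50, adjusted p = 0.00165), with little spread inside either group. Slc7a2 (chr8:40862396-40922308, plus strand), a cationic amino acid transporter that brings arginine into macrophages, rose from 45.6, 67.3 and 55.8 CPM to 1313, 384 and 363 CPM (log2 fold change 3.61 ± 0.52, adjusted p = 0.00366; 2.77 without SPARC 1). Here the untreated wells were alike and SPARC 1 was far above the other SPARC libraries. Smpdl3b, a membrane-anchored phospholipase of the sphingomyelinase family, rose from 11.1, 1.88 and 1.63 CPM to 132, 51.6 and 48.4 CPM (3.98 ± 0.73; 5.44 without untreated 1). Tarm1, an activating immunoglobulin-like receptor of myeloid cells, rose by 3.89 ± 0.53 (4.55 without untreated 1) and Bcl2a1a, an anti-apoptotic BCL2 relative with close copies in the genome, by 2.89 ± 0.22.

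The 10 steepest steady falls were Cbr2, Clec10a, Engase, Gas6, Gpx3, Slc46a3, Dbp, Cd300a, Id3 and Nat8l. Clec10a (chr11:70156197-70170834, plus strand), the galactose-binding lectin of alternatively activated macrophages, fell from 55.1, 19.9 and 32.5 CPM to 3.35, 4.25 and 4.50 CPM (log2 fold change -3.15 ± 0.36, adjusted p = 0.00119). Gas6 (chr8:13465374-13494490, minus strand), which bridges phosphatidylserine on dying cells to the TAM receptors, fell from 116, 46.5 and 92.1 CPM to 5.76, 13.9 and 16.9 CPM (log2 fold change -2.80 ± 0.51, adjusted p = 0.00903). Cbr2 (chr11:120729489-120732114, minus strand), a carbonyl reductase, fell from 69.6, 13.2 and 22.2 CPM to 1.55, 5.14 and 3.82 CPM (log2 fold change -3.32 ± 0.67, adjusted p = 0.0138; -2.32 without untreated 1). In all 3 genes untreated 1 was the highest library and SPARC 1 the lowest, so the change was widest in replicate 1 and the groups did not overlap. Cbr2 was not called in the blocked fit on the TG libraries alone (adjusted p = 0.0898). Cd300a, an inhibitory receptor for phosphatidylserine, was more abundant: 273, 435 and 409.7 CPM untreated and 26.1, 106 and 98.1 CPM with SPARC (-2.28 ± 0.43).

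The others of the 10 were Engase, a cytosolic glycan-cleaving enzyme (-3.14 ± 0.49; -2.51 without untreated 1), Gpx3, the secreted glutathione peroxidase (-2.76 ± 0.40), Slc46a3, a lysosomal transporter (-2.31 ± 0.29), Id3, an inhibitor of helix-loop-helix factors (-2.23 ± 0.23), Nat8l, which makes N-acetylaspartate (-2.22 ± 0.40; -1.57 without untreated 1), and Dbp, a clock output factor (-2.28 ± 0.42). Among the most abundant called genes not set aside, Sepp1, the selenium carrier selenoprotein P, fell from 2616, 1749 and 2081 CPM to 302, 712 and 678 CPM (log2 fold change -1.93 ± 0.32, adjusted p = 0.00624). Fth1, the ferritin heavy chain, had the highest mean FPKM of the called genes not set aside. It rose from 9873, 9262 and 8924 CPM to 26561, 21780 and 22956 CPM (log2 fold change 1.35 ± 0.22, adjusted p = 0.00574). Processed copies of Fth1 exist in the genome and can share its reads. Fcer1g, the signalling chain of activating Fc receptors, rose from 395, 366 and 357 CPM to 753, 750.4 and 730.1 CPM (1.00 ± 0.09), and B2m, the light chain of MHC class I, rose by 0.94 ± 0.18. The panels of levels by library show 16 of these genes.

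**Figure D2:**
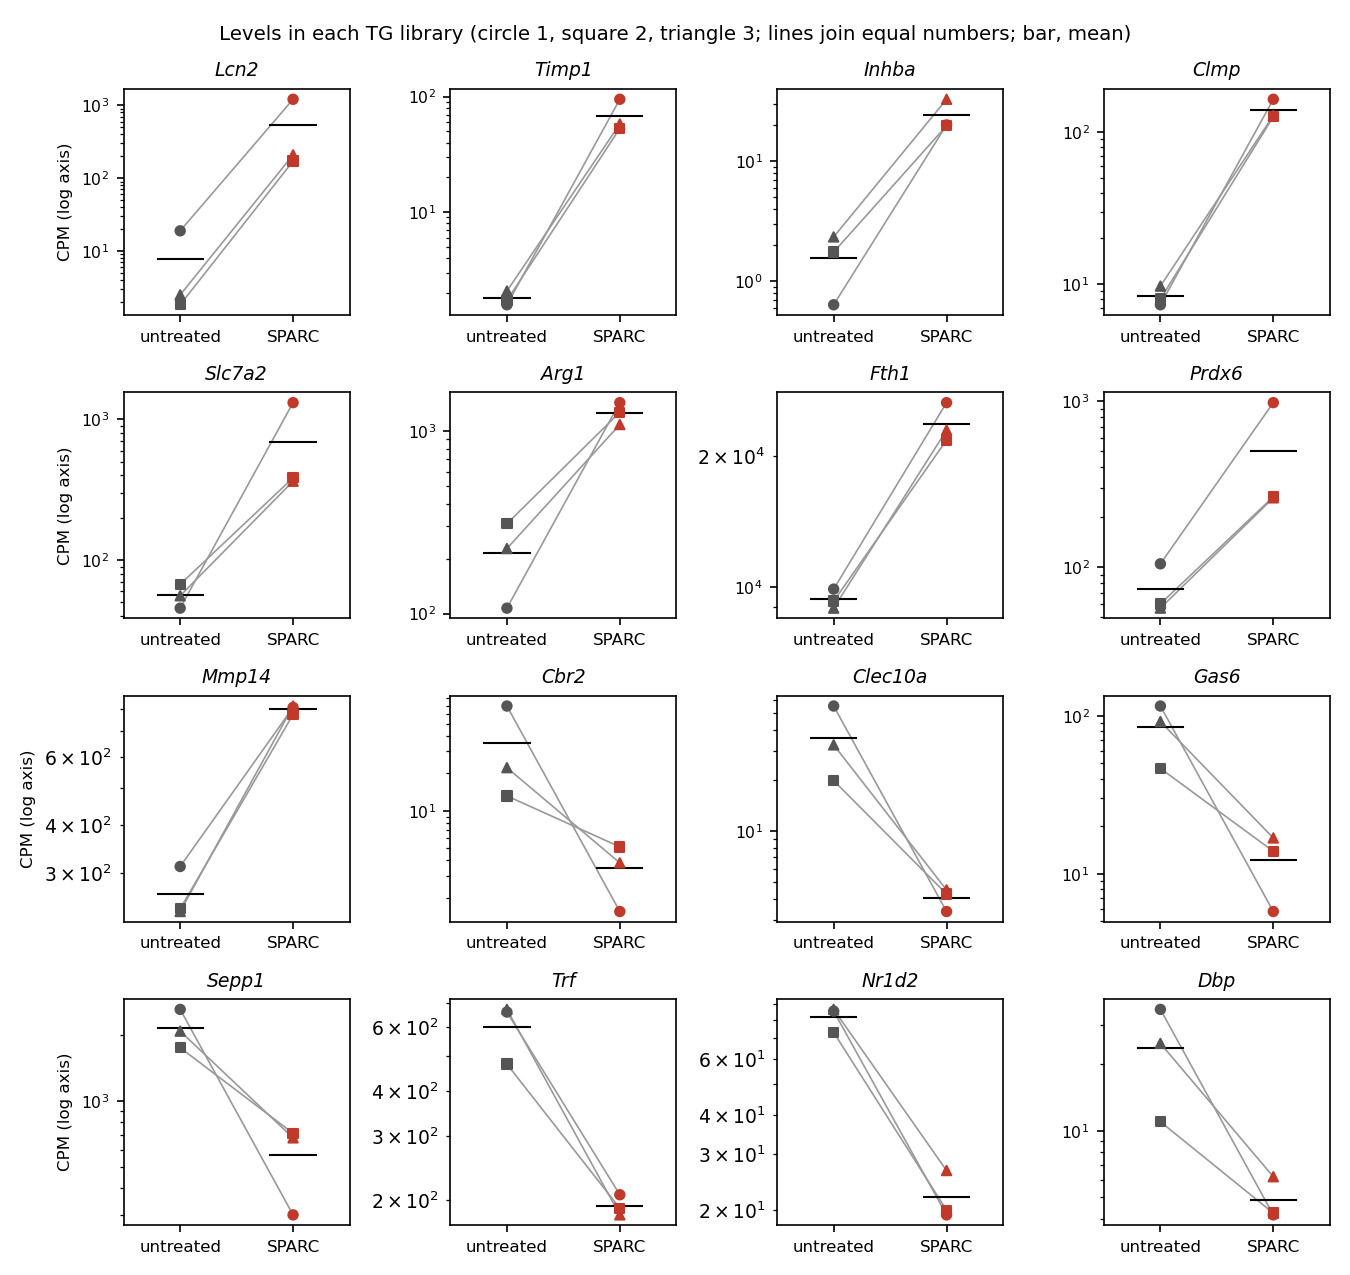
CPM of 16 genes in each TG library on a log axis; symbols mark replicates 1 (circle), 2 (square) and 3 (triangle), grey lines join libraries with the same number, and black bars are group means of 3. In each gene the 3 SPARC libraries lie on one side of the 3 untreated ones, and replicate 1 takes the widest step in Clec10a, Gas6 and Cbr2.

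Outside interferon, NF-kB and glycolysis, 34 lists of genes by function were compared with the share of all genes called. That share was 6.73% higher and 4.52% lower. The steady shares were 2.77% and 1.21%, and those with the replicate block 14.3% and 13.1%. A list count near these shares says nothing particular about the list. As the yardstick, 47 of 57 interferon-stimulated genes, 6 of 36 NF-kB genes and 12 of 24 glycolytic genes were steady rises. Among the 34, the hypoxia-inducible genes and the constitutive proteasome had the most rises relative to their size, and the clock genes the most falls. The bars of called members by list place each of them beside the share for all tested genes.

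**Figure D3:**
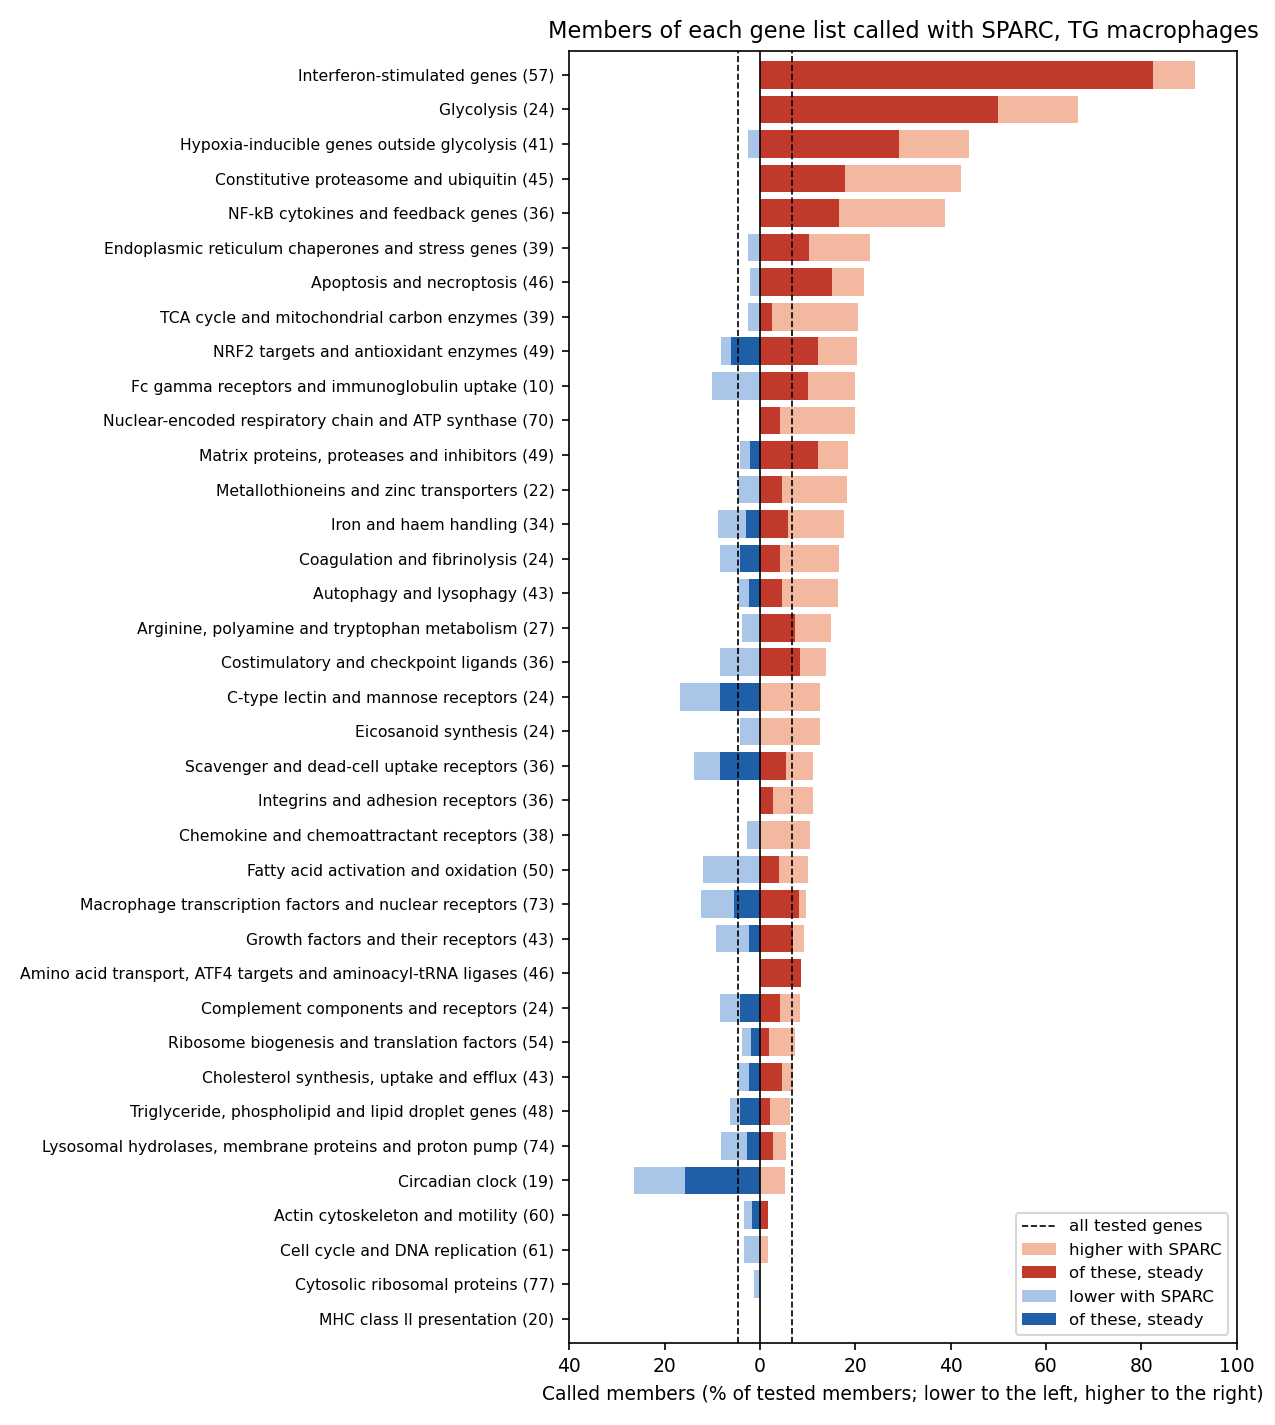
Share of each list's tested members called higher (right) or lower (left) with SPARC, in percent of the number in brackets; dark bars are the steady part, and dashed lines mark all tested genes (6.73% higher, 4.52% lower). Hypoxia-inducible genes had 43.9% of members higher, the constitutive proteasome 42.2% and MHC class II none.

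Hypoxia-inducible genes are targets of the transcription factors that cells stabilise when prolyl hydroxylases lack oxygen, and macrophages also switch them on when activated in normal oxygen. Leaving out glycolysis, 18 of the 41 tested members were higher and 1 lower (median log2 fold change 0.83, against -0.03 for all tested genes), and 12 of the rises were steady. Those steady members include oxygen sensing itself. Egln1, the main prolyl hydroxylase that marks the factors for destruction, was 44.7, 63.5 and 55.2 CPM untreated and 99.5, 156 and 143 CPM with SPARC (log2 fold change 1.29 ± 0.23, adjusted p = 0.00893). Vhl, the ubiquitin ligase subunit that reads this mark, was 26.4, 24.1 and 21.6 CPM untreated and 46.5, 44.4 and 38.9 CPM with SPARC (log2 fold change 0.85 ± 0.09, adjusted p = 0.00101). Both rose in every replicate with little spread. Hif1a itself was 403, 154 and 189 CPM untreated and 807, 415 and 478 CPM with SPARC and was not called (log2 fold change 1.19 ± 0.40, adjusted p = 0.0872), although its libraries did not overlap and the replicate block gave an adjusted p of 5.96e-04. The lone call in the other direction was Hif1an, the asparaginyl hydroxylase of the same pathway (-0.21 ± 0.06; not called without any 1 TG library or any 1 IL4c library, adjusted p 0.0538 to 0.201).

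Enzymes that fold and hydroxylate collagen were part of this group. P4ha1 and P4ha2 are catalytic subunits of collagen prolyl hydroxylase. P4ha1 rose from 72.7, 93.1 and 87.8 CPM to 186, 227 and 226 CPM (log2 fold change 1.33 ± 0.15, adjusted p = 0.0012). P4ha2, much less abundant, rose from 2.10, 2.87 and 2.47 CPM to 7.53, 11.3 and 8.82 CPM (log2 fold change 1.89 ± 0.30, adjusted p = 0.00484). P4hb, their shared partner and a disulfide isomerase, rose from 395, 499 and 491 CPM to 874, 832 and 825 CPM (0.87 ± 0.12). Ero1l, the oxidase that recharges disulfide isomerases in the endoplasmic reticulum, rose from 52.5, 92.4 and 77.3 CPM to 222, 313 and 242 CPM (log2 fold change 1.80 ± 0.30, adjusted p = 0.0066). These 4 enzymes act on the same secretory route, and none overlapped between groups. Other steady members included Gys1, glycogen synthase (2.43 ± 0.36), the mitochondrial proteins Fam162a (1.73 ± 0.31) and Higd1a (1.42 ± 0.14), the demethylase-like oxygenase Jmjd6 (0.83 ± 0.13) and Narf (0.79 ± 0.14). Vegfa (0.02 ± 0.39, adjusted p = 0.981) and Car9 (0.22 ± 0.36, adjusted p = 0.754), textbook targets of the same factors, did not pass.

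The 250 bases before the start of 4 of these steady genes are shown because the hypoxia response core lies close to their RefSeq start. Sequences are from RefSeq (GRCm38.p6), written on the gene's strand, with every ACGTG or GCGTG of either strand in capitals. The reverse complements are CACGT and CACGC, and the core overlaps the E-box CACGTG. They come from chr8:124949255-124949504 (minus strand) for Egln1, chr14:45318573-45318822 (minus) for Ero1l, chr10:59323046-59323295 (plus) for P4ha1 and chr11:54100674-54100923 (plus) for P4ha2.
Egln1: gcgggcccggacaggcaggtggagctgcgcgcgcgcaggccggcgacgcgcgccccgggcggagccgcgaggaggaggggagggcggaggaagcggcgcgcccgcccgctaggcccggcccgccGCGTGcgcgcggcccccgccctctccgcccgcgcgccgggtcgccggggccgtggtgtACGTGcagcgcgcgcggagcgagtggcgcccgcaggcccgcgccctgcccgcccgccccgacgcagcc
Ero1l: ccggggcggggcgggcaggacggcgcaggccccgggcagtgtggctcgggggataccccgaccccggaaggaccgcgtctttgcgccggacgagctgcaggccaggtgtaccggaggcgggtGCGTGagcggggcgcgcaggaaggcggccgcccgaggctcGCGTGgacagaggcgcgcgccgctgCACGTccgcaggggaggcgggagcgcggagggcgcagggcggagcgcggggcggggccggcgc
P4ha1: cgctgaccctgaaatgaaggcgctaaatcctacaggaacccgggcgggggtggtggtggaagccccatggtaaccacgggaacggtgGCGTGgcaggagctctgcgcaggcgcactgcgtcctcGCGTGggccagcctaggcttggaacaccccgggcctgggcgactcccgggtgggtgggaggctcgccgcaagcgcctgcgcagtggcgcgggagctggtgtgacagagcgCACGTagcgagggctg
P4ha2: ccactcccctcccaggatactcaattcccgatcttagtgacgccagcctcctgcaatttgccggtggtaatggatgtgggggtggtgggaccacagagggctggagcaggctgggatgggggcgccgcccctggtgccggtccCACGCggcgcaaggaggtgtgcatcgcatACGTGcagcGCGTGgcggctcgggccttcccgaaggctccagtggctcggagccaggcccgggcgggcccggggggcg
The nearest match ends 63, 58, 11 and 64 bases before the RefSeq start, and the GENCODE start lies 70, 199, 0 and 829 bases away from the RefSeq one. This short motif is common: 38.6% of 32851 RefSeq promoters hold at least 1 match in the same window. Of the hypoxia members with a promoter in the table, 13 of 16 that rose (81.2%) and 12 of 17 that were not called (70.6%) hold it. A match describes letters only.

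Iron handling genes moved in both directions. Macrophages recycle iron by taking it up with haem or transferrin, storing it in ferritin and exporting it through ferroportin, and during inflammation they are known to retain it. Of 34 tested iron and haem genes, 6 rose and 3 fell; 2 rises, Lcn2 and Fth1, and 1 fall, Trf, were steady. Trf, transferrin, the iron carrier that macrophages also secrete, fell from 661, 475 and 672 CPM to 207, 189.9 and 182 CPM (log2 fold change -1.64 ± 0.22, adjusted p = 0.00239). Slc40a1, ferroportin, the sole known iron exporter, was 2.81, 11.3 and 19.0 CPM untreated and 0.609, 1.24 and 0.647 CPM with SPARC (-3.73 ± 0.83; -3.07 without untreated 3; not called without untreated 3 or SPARC 1, 2 or 3, adjusted p 0.0507 to 0.0768). Hmox1, which degrades haem and releases its iron, was 466, 427 and 398 CPM untreated and 2548, 825 and 841 CPM with SPARC (log2 fold change 1.71 ± 0.39, adjusted p = 0.0222; 0.99 without SPARC 1; not called without untreated 2 or 3, adjusted p 0.0554 to 0.0772). SPARC 1 was far higher than the other SPARC libraries for Hmox1. The ferritin light chain Ftl1 was not called (0.00 ± 0.27, adjusted p = 0.999), nor was the transferrin receptor Tfrc (-0.98 ± 0.64, adjusted p = 0.373). Counts of rises were 2 without untreated 2 or 3, 3 without SPARC 3 or IL4c untreated 1, and counts of falls were 1 without untreated 3 or SPARC 2 or 3; with the replicate block they were 9 and 8.

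Metallothioneins bind zinc and copper and are induced by metals, glucocorticoids and oxidative stress. Mt2 rose from 10.4, 8.45 and 11.5 CPM to 37.8, 38.0 and 26.1 CPM (log2 fold change 1.75 ± 0.25, adjusted p = 0.00353) and was the sole steady member of 22 metallothionein and zinc transporter genes; Mt1 was not called (0.38 ± 0.15, adjusted p = 0.124). The zinc and iron importer Slc39a14 was 20.8, 18.0 and 20.7 CPM untreated and 66.4, 32.8 and 35.6 CPM with SPARC (1.18 ± 0.32; not called without untreated 1, 2 or 3, SPARC 1 or 3, IL4c untreated 1, 2 or 3 or IL4c SPARC 2, adjusted p 0.0523 to 0.106). The promoter of Mt2 (RefSeq, GRCm38.p6, chr8:94172368-94172617, plus strand) is shown with each metal response element, TGCACNC or TGCGCNC on either strand, in capitals (reverse complements GNGTGCA and GNGCGCA), because it holds 3 of them.
Mt2: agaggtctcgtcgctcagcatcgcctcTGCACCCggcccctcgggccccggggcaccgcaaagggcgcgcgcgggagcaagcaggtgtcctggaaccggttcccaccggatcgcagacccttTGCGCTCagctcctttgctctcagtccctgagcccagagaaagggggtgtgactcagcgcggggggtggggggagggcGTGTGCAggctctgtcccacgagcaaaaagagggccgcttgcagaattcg
The nearest of its 3 matches ends 43 bases before the RefSeq start, and the GENCODE start lies 46 bases from that one. At least 1 match is held by 21.4% of all RefSeq promoters in such a window. Of the list's members with a promoter, 1 of 3 that rose (33.3%) and 6 of 15 that were not called (40%) hold it. As above, a match describes letters only.

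Antioxidant enzymes went both ways. Of 49 tested members, 10 rose and 4 fell, 6 and 3 of them steady. Superoxide dismutases convert superoxide to peroxide. The mitochondrial Sod2 was 245, 88.1 and 96.7 CPM untreated and 1209, 573 and 642 CPM with SPARC (log2 fold change 2.50 ± 0.44, adjusted p = 0.00787; 3.12 without untreated 1). The secreted Sod3 was 0.401, 0.495 and 0.499 CPM untreated and 1.83, 1.26 and 1.47 CPM with SPARC (log2 fold change 1.70 ± 0.34, adjusted p = 0.0138). Each SPARC library exceeded each untreated one, while the cytosolic Sod1 was not called (0.14 ± 0.08, adjusted p = 0.301). Peroxiredoxins reduce peroxides, and 3 of them were steady rises: Prdx6, from 105, 60.1 and 56.6 CPM to 977, 265 and 261 CPM (log2 fold change 2.76 ± 0.50, adjusted p = 0.0091; 1.88 without SPARC 1), Prdx5 (1.25 ± 0.24) and Prdx2 (0.46 ± 0.09). Prdx6 was highest in replicate 1 on both sides. Keap1, the sensor that holds NRF2 in check, rose slightly (0.48 ± 0.08), and the gene for NRF2 itself, Nfe2l2, was not called (-0.33 ± 0.17, adjusted p = 0.251). Nor were the standard NRF2 targets Nqo1 (0.67 ± 0.72, adjusted p = 0.614), Gclm (0.46 ± 0.31, 0.395), Txnrd1 (0.26 ± 0.28, 0.612) or Srxn1 (-0.02 ± 0.26, 0.97). The steady falls were Gpx3, Cbr2 and Idh1, the cytosolic NADP-linked isocitrate dehydrogenase (441, 388 and 390.3 CPM to 255, 244 and 248 CPM; -0.70 ± 0.10). Without untreated 3 the count of rises was 6, and with the replicate block it was 21.

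**Figure D4:**
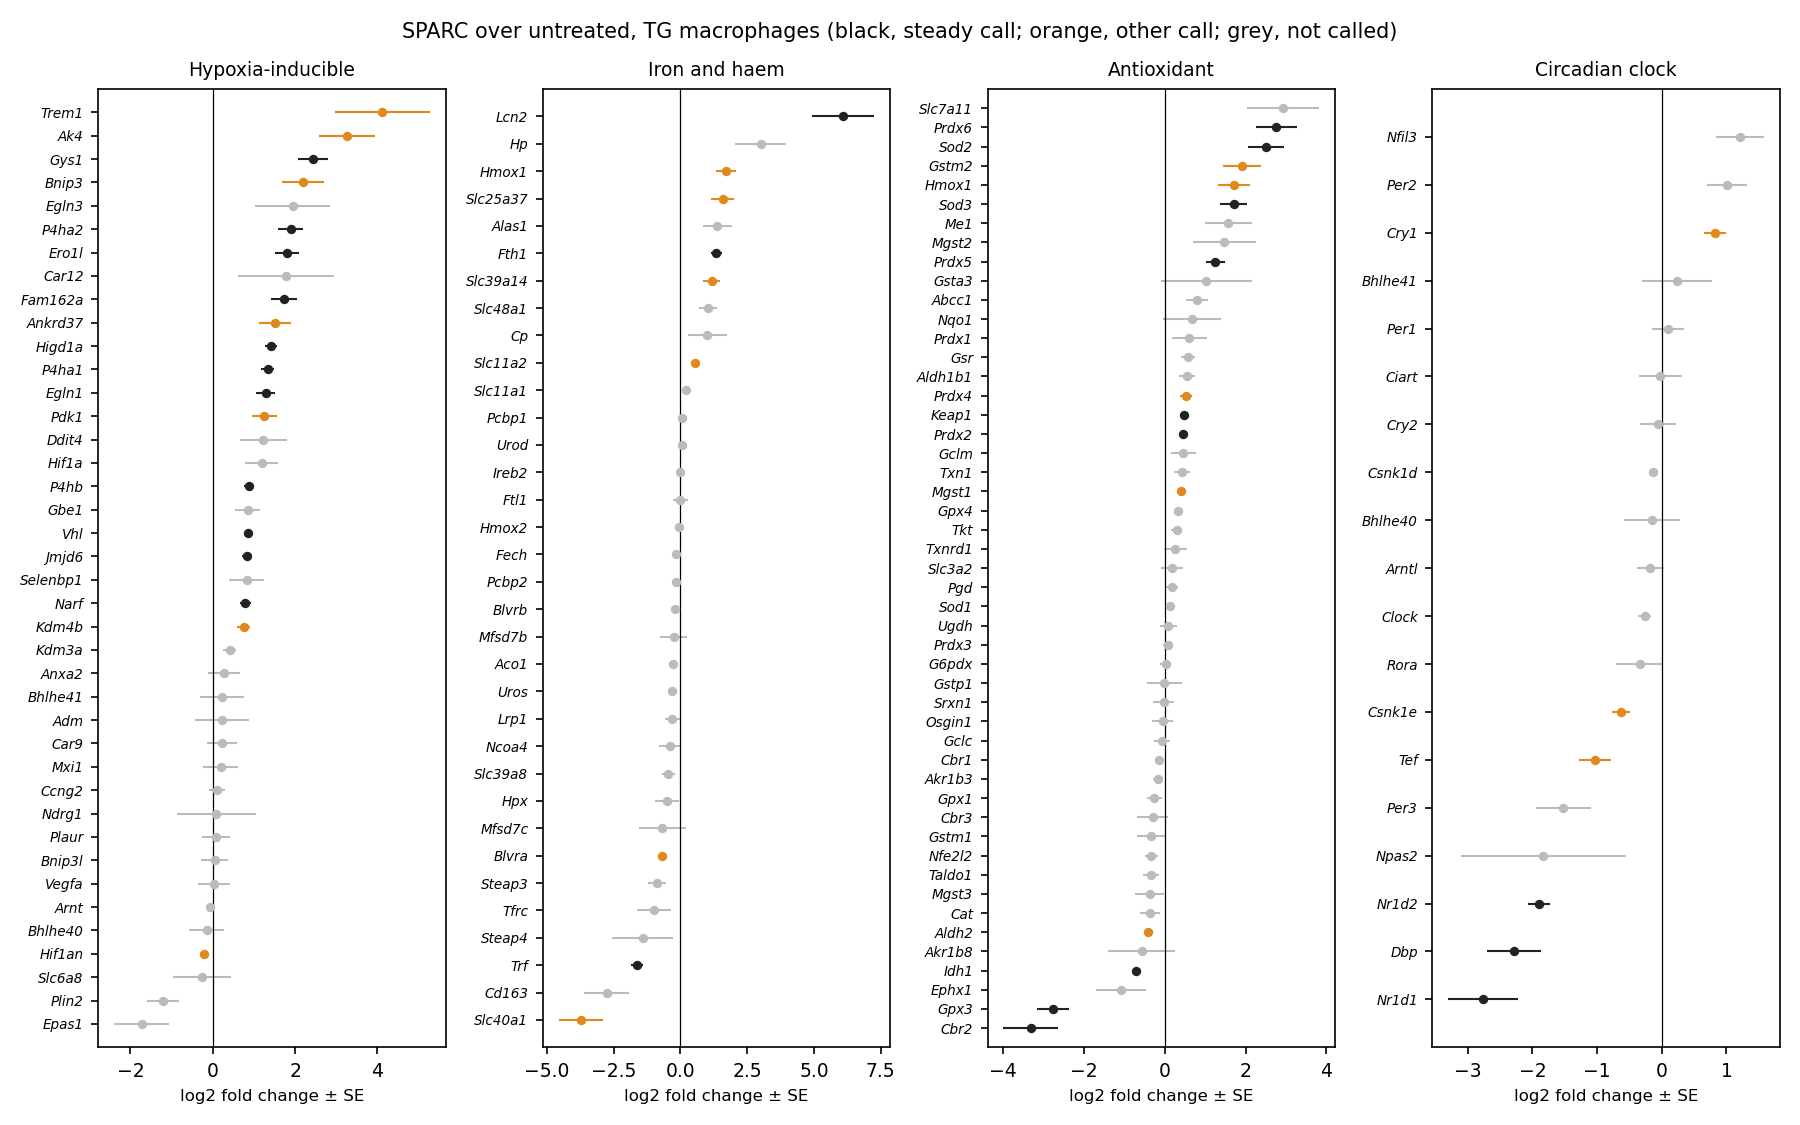
Log2 fold change of SPARC over untreated with its standard error (n = 3 against 3) for tested members of 4 lists; black marks steady calls, orange other calls and grey genes not called. Most called hypoxia members lie to the right of 0, the iron and antioxidant lists have called genes on both sides, and the 3 steady clock genes lie at the lower left.

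Matrix remodelling genes rose more often than they fell: 9 of the 49 tested members were higher and 2 lower, with 6 steady rises and 1 steady fall (median 0.63). SPARC raised Timp1, as above, and Mmp14, the membrane-bound metalloproteinase that cleaves collagen and activates other proteases, which stood at 312, 243 and 239 CPM untreated and 806, 773 and 813 CPM with SPARC (log2 fold change 1.59 ± 0.13, adjusted p = 2.82e-04). The 3 libraries of each group lay close together. Timp2, an inhibitor that Mmp14 itself binds, fell from 789.5, 741 and 860.4 CPM to 231, 413 and 451 CPM (log2 fold change -1.13 ± 0.22, adjusted p = 0.0115). The remaining steady rises were P4ha1, Plod3, a collagen lysyl hydroxylase (1.03 ± 0.20), Bsg, basigin, which induces metalloproteinases in neighbouring cells (0.99 ± 0.18), and Adam17, the sheddase that frees tumour necrosis factor (0.70 ± 0.11). Vcan, the proteoglycan versican, was 16.9, 5.66 and 6.01 CPM untreated and 181, 32.1 and 26.6 CPM with SPARC (3.06 ± 0.87; 1.67 without SPARC 1 and 3.75 without untreated 1; not called without untreated 2 or 3, SPARC 1 or 2, IL4c untreated 1 or 2 or IL4c SPARC 1, 2 or 3, adjusted p 0.0522 to 0.153). The mesothelial and fibroblast sum was higher with SPARC in each replicate number, with Col1a1 at most 86.6 CPM in any library. Col1a2 (34.5% of the sum) and Col1a1 were its top members, so the sum mostly follows collagen genes. The list did not rise as a group: its 10 tested members had a median log2 fold change of -0.51, and of 0.56 on log2(FPKM + 1). The part of these cells in the matrix counts was not tested. The added protein's own gene, Sparc, was 1.23, 36.3 and 28.4 CPM untreated and 4.24, 33.3 and 36.1 CPM with SPARC and was not called (0.16 ± 1.04, adjusted p = 0.948). With the replicate block, matrix rises numbered 19 and falls 4; without single libraries the falls were 1 without untreated 2 or 3 or SPARC 1 or 3, 4 without untreated 1.

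In coagulation and fibrinolysis, Thbd, thrombomodulin, which turns thrombin to an anticoagulant role, fell from 61.2, 79.2 and 76.4 CPM to 21.4, 31.8 and 33.5 CPM (log2 fold change -1.32 ± 0.25, adjusted p = 0.0108), the steady fall among 24 tested genes. F10, coagulation factor X, was 140.1, 137 and 117 CPM untreated and 504, 324 and 310.3 CPM with SPARC (1.53 ± 0.31; not called without untreated 3, adjusted p = 0.0563), and Procr, the receptor of protein C, rose by 2.13 ± 0.50 (not called without untreated 1, 2 or 3 or SPARC 1, adjusted p 0.0526 to 0.0901). Pros1, protein S, a cofactor of protein C and a second bridging ligand beside Gas6, fell by 0.96 ± 0.22 on the log2 scale (not called without untreated 3 or SPARC 1, 2 or 3, adjusted p 0.0525 to 0.0698). Counting all calls, 4 members were higher and 2 lower (7 higher and 3 lower with the replicate block).

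Growth factors and their receptors went both ways, 4 higher and 4 lower of 43 (9.3% each), with 3 and 1 steady. Over all tested genes 6.73% were higher and 4.52% lower, so the list as a whole stood out little. Besides Inhba, Met, the receptor of hepatocyte growth factor, rose from 17.8, 26.2 and 27.5 CPM to 107, 128 and 135 CPM (log2 fold change 2.37 ± 0.48, adjusted p = 0.014). Csf1, the growth factor macrophages need to survive, rose from 8.49, 13.97 and 11.9 CPM to 29.9, 24.4 and 24.5 CPM (log2 fold change 1.19 ± 0.22, adjusted p = 0.0106). Bmp2, a bone morphogenetic protein, fell from 19.9, 14.5 and 21.9 CPM to 3.99, 6.49 and 7.26 CPM (log2 fold change -1.66 ± 0.27, adjusted p = 0.00581). Angptl4, an inhibitor of lipoprotein lipase, fell by 2.41 ± 0.58 on the log2 scale (not called without untreated 3 or SPARC 1, 2 or 3, adjusted p 0.0541 to 0.0887), and Fgfr1 by 1.12 ± 0.23 (not called without untreated 3 or SPARC 2, adjusted p 0.0508 to 0.0538). Falls numbered 1 without untreated 3 or SPARC 2, 2 without SPARC 1, and 9 with the replicate block.

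Arginine is the shared substrate of arginase, which makes ornithine and urea, and of the inducible nitric oxide synthase. Arg1 (chr10:24915221-24927484, minus strand) was 107, 311 and 227 CPM untreated and 1430, 1267 and 1085 CPM with SPARC (log2 fold change 2.55 ± 0.46, adjusted p = 0.00855). The untreated libraries differed among themselves, with replicate 1 lowest, whereas the SPARC libraries converged at about the same level. The transporter Slc7a2 rose as described, and Ass1, which regenerates arginine from citrulline, was 45.3, 8.37 and 7.75 CPM untreated and 291, 137 and 144 CPM with SPARC (3.22 ± 0.73; 4.55 without untreated 1; not called without untreated 2 or 3, adjusted p 0.0561 to 0.0671). Gch1, the first enzyme of tetrahydrobiopterin synthesis, the cofactor of nitric oxide synthases, rose from 21.7, 23.8 and 22.9 CPM to 58.3, 48.7 and 51.4 CPM, a steady call (log2 fold change 1.21 ± 0.14, adjusted p = 0.0012). Nos2 was 0.259, 15.8 and 0.420 CPM untreated and 196, 154 and 54.6 CPM with SPARC and did not pass (4.63 ± 1.45, adjusted p = 0.0693), while the replicate block gave 0.0187; the libraries did not overlap, but untreated 2 was far above the other untreated ones. Sat1, which acetylates polyamines for export, fell from 294, 388 and 375 CPM to 113, 208 and 190.0 CPM (-1.05 ± 0.21; not called without untreated 2 or 3, adjusted p 0.0556 to 0.0616). Of 27 tested genes of arginine, polyamine and tryptophan metabolism, 4 rose and 1 fell; the rises were 2 without untreated 3.

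One-carbon and amino acid genes added 4 steady rises and no fall among 46 tested members. Mthfd1l and Mthfd2 are mitochondrial folate enzymes that make formate for purine synthesis. Mthfd1l rose from 9.36, 7.95 and 7.98 CPM to 23.3, 34.9 and 30.9 CPM (log2 fold change 1.82 ± 0.22, adjusted p = 0.0015), and Mthfd2 rose by 1.35 ± 0.21. Slc7a8, a transporter of neutral amino acids, rose from 165, 144 and 157 CPM to 394, 284 and 301 CPM (log2 fold change 1.07 ± 0.13, adjusted p = 0.00155), and the last of the 4 was Slc7a2. Not one aminoacyl-tRNA ligase of the list was called. With the replicate block 13 members rose, and without untreated 1 the number was 8.

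Lipid genes changed by step rather than as a whole. Acsl1, which activates long-chain fatty acids, was 88.1, 72.3 and 80.7 CPM untreated and 843, 291 and 358 CPM with SPARC (log2 fold change 2.63 ± 0.40, adjusted p = 0.00439). Acsl4, which prefers arachidonate, was 117, 101 and 106 CPM untreated and 180.5, 169 and 166 CPM with SPARC (log2 fold change 0.67 ± 0.09, adjusted p = 0.00301). Both were steady, whereas enzymes of beta-oxidation proper were lower without being steady: Hadha (-0.37 ± 0.07; not called without untreated 2 or 3 or SPARC 1 or 3, adjusted p 0.0506 to 0.0733), Hadhb (-0.46 ± 0.10; not called without untreated 2 or 3 or SPARC 2 or 3, adjusted p 0.079 to 0.0932) and Acaa2 (-0.54 ± 0.12; not called without SPARC 3, adjusted p = 0.0501). Over the list of fatty acid activation and oxidation, 5 of the 50 tested members were higher and 6 lower; the rises were 2 without untreated 3, 3 without SPARC 2 and the falls 0 without SPARC 3, 1 without untreated 2 or 3, 2 without SPARC 1 or 2, and the block gave 11 and 9.

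Among sterol genes, Scd2, a fatty acid desaturase, rose from 82.7, 31.6 and 34.4 CPM to 144, 187 and 179 CPM (1.78 ± 0.34; 2.37 without untreated 1) and Abca1, the pump that loads cholesterol onto apolipoproteins, from 737, 388 and 585 CPM to 1345, 1032 and 1173 CPM (1.05 ± 0.22). Cyp27a1, which makes hydroxycholesterol, fell from 54.7, 39.9 and 40.8 CPM to 5.27, 13.4 and 13.9 CPM (log2 fold change -2.06 ± 0.36, adjusted p = 0.00739). Hmgcs1, an early enzyme of cholesterol synthesis, was slightly lower (-0.38 ± 0.09; not called without untreated 1, 2 or 3, SPARC 1 or 2 or IL4c SPARC 1 or 3, adjusted p 0.0576 to 0.118). Lpin1, the phosphatidate phosphatase that feeds triglyceride synthesis, fell from 53.5, 47.1 and 56.4 CPM to 8.53, 17.0 and 16.4 CPM (log2 fold change -1.91 ± 0.24, adjusted p = 0.00179), and Pla2g15, the lysosomal phospholipase, from 192, 183 and 228 CPM to 62.2, 96.8 and 107 CPM (-1.18 ± 0.22). Dgat2, the last enzyme of triglyceride synthesis, was 0.731, 0.235 and 0.236 CPM untreated and 42.8, 1.75 and 2.15 CPM with SPARC (5.25 ± 1.25; 2.29 without SPARC 1 and 5.99 without untreated 1; not called without untreated 2 or 3, adjusted p 0.0835 to 0.0981), so most of its signal lay in SPARC 1. Called members numbered 3 higher and 2 lower of 43 sterol genes (11 higher and 7 lower with the replicate block) and 3 and 3 of 48 triglyceride and phospholipid genes (13 higher and 7 lower with the replicate block). These shares, 6.98% and 4.65% for sterol genes and 6.25% each way for the others, were near those of all tested genes (6.73% and 4.52%). Without untreated 1 there were 9 rises in each of the 2 lists.

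Prostaglandin synthesis had no steady member. Ptges, the inducible prostaglandin E synthase, was 22.6, 5.94 and 6.70 CPM untreated and 424, 55.3 and 72.6 CPM with SPARC (3.97 ± 0.90; 2.50 without SPARC 1 and 4.83 without untreated 1; not called without untreated 2 or 3, adjusted p 0.068 to 0.0842) and again stood out in SPARC 1. Ptgs2, cyclooxygenase 2, which belongs to the reference families, was 1.58, 4.22 and 3.91 CPM untreated and 18.8, 17.8 and 11.9 CPM with SPARC (2.32 ± 0.63; not called without any 1 TG library, IL4c untreated 2 or IL4c SPARC 1, 2 or 3, adjusted p 0.0516 to 0.105). Hpgd, which degrades prostaglandins, was at or below 0.230 CPM in every SPARC library against 1.23 to 1.82 CPM untreated (-3.38 ± 0.83; not called without untreated 2 or 3, SPARC 1, 2 or 3, IL4c untreated 2 or IL4c SPARC 1, adjusted p 0.0527 to 0.105). SPARC libraries 1 and 3 held 3 counts each, so its fold change depends on the prior count of the fit.

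Transcripts of the proteasome rose in many members but by small steps, and protein breakdown itself was not measured. The proteasome degrades ubiquitin-tagged proteins through a barrel of alpha and beta subunits capped by regulatory particles, and interferon adds alternative catalytic subunits, which were left out of this list. Of 45 constitutive subunits and ubiquitin genes, 19 rose and none fell (median 0.35), and 8 were steady: Psmd10 (0.89), Psma5 (0.69), Psma2 (0.58), Psma7 (0.56), Psma1 (0.49), Psma6 (0.48), Psmb4 (0.47) and Psmc1 (0.35), in log2 fold change. Psmc1 was not called with total-count scaling (adjusted p = 0.0543) or with limma on log2(FPKM + 1) (0.0564). Psmd10, an assembly chaperone also known as gankyrin, was 27.7, 25.6 and 23.2 CPM untreated and 49.6, 45.7 and 46.4 CPM with SPARC (log2 fold change 0.89 ± 0.09, adjusted p = 4.84e-04). Psma1, a subunit of the barrel, was 83.8, 87.8 and 81.7 CPM untreated and 117, 121 and 116 CPM with SPARC (log2 fold change 0.49 ± 0.05, adjusted p = 9.77e-04). Both genes varied little within a group, and the groups did not overlap. The replicate block called 31 rises and no fall; without untreated 3 there were 8.

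Endoplasmic reticulum chaperones rose in 9 of 39 cases and fell in 1, with 4 steady: Ero1l, P4hb, Dnajb11, a co-chaperone (75.0, 90.2 and 89.0 CPM to 153, 129 and 123 CPM; 0.67 ± 0.12), and Ssr2, part of the translocon (0.62 ± 0.13). Calr, calreticulin, was 742, 817 and 807 CPM untreated and 1666, 1443 and 1434 CPM with SPARC (0.94 ± 0.21; not called without untreated 3, adjusted p = 0.0642). Ern1, a sensor of unfolded protein, fell by 0.51 ± 0.11 on the log2 scale (not called without SPARC 1, adjusted p = 0.0603), and the stress factors Ddit3 (-0.37 ± 0.33, adjusted p = 0.538) and Atf4 (0.07 ± 0.26, adjusted p = 0.905) were not called. The count of rises was 4 without untreated 3 and 18 with the block.

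Nuclear-encoded subunits of the respiratory chain rose in 14 of 70 cases and fell in none (median 0.33), with 3 steady subunits of complex I: Ndufv3 (0.68), Ndufa11 (0.64) and Ndufa8 (0.46). Ndufa8 was 30.9, 30.8 and 29.0 CPM untreated and 43.8, 40.8 and 39.6 CPM with SPARC (log2 fold change 0.46 ± 0.08, adjusted p = 0.00802). This count depended strongly on the setting: it was 3 without untreated 3, 6 without SPARC 3, 7 without SPARC 1 or 2, 9 without untreated 2, 23 without IL4c untreated 3, and 46 with the replicate block. In the tricarboxylic acid cycle and its feeders 8 of 39 rose and 1 fell; Pdk3, a kinase that restrains pyruvate dehydrogenase, was the steady member, at 21.3, 15.2 and 14.7 CPM untreated and 31.3, 34.3 and 30.0 CPM with SPARC (log2 fold change 0.90 ± 0.13, adjusted p = 0.0039), and Glud1, glutamate dehydrogenase, the fall (-0.43 ± 0.07; not called without untreated 2, adjusted p = 0.0509). These rises were 1 without untreated 3, 2 without SPARC 2, 3 without untreated 2 or SPARC 3, and 13 with the block.

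Genes for the uptake of dying cells fell and rose in like numbers. Of 36 scavenger and dead-cell uptake genes, 4 rose and 5 fell. The steady falls were Gas6, Cd300a and Elmo1, an engulfment adaptor (59.9, 71.4 and 72.5 CPM to 44.1, 45.4 and 45.7 CPM; log2 fold change -0.59 ± 0.10, adjusted p = 0.00785), and the steady rises were Abca1 and Xkr8, the scramblase that exposes phosphatidylserine in apoptosis (5.92, 7.25 and 6.22 CPM to 14.2, 15.4 and 14.1 CPM; log2 fold change 1.17 ± 0.10, adjusted p = 3.28e-04). Gas6's receptor Mertk was not called (-0.54 ± 0.17, adjusted p = 0.071; 0.0176 with the block). Stab1, stabilin 1, a scavenger receptor known to bind SPARC, was 333, 204 and 304 CPM untreated and 315, 201 and 250.0 CPM with SPARC and was not called (-0.13 ± 0.25, adjusted p = 0.793). Rises numbered 2 without untreated 2 or 3, SPARC 2 or 3, IL4c untreated 1 or 2 or IL4c SPARC 1, 2 or 3 and falls 3 without untreated 3 or SPARC 2 or 3, against 6 and 11 with the block.

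C-type lectins were called in both directions. Clec4e (Mincle), which recognises mycobacterial glycolipids and dead-cell ligands, was 288, 56.0 and 80.3 CPM untreated and 1114, 661 and 686 CPM with SPARC (2.54 ± 0.62; 3.58 without untreated 1; not called without untreated 2 or 3 or SPARC 1 or 3, adjusted p 0.0514 to 0.098). Clec5a was higher by 1.35 ± 0.34 (not called without untreated 2 or 3, SPARC 1 or 2 or IL4c untreated 1, adjusted p 0.0506 to 0.109) and Cd302 by 1.16 ± 0.24 (not called without untreated 3, adjusted p = 0.0538). On the other side Clec10a and Clec4b1 (3.35, 1.98 and 2.50 CPM to 0.396, 0.172 and 0.412 CPM; log2 fold change -2.99 ± 0.50, adjusted p = 0.00609) were steady falls. Cd209a was 4.20, 0.521 and 0.867 CPM untreated and 0, 0.0287 and 0 CPM with SPARC; leaving out SPARC 2 ended its call (adjusted p = 0.051), and its SPARC libraries were at or under the level of 3 counts. Clec10a and Cd209a also mark dendritic cells and monocytes: the dendritic cell sum, mostly Bst2, an interferon-stimulated gene, was 54.8 to 124 CPM untreated and 363 to 431 CPM with SPARC, and the part of those cells was not tested. The list had 3 rises and 4 falls of 24 (5 higher and 8 lower with the replicate block); rises were 0 without untreated 3, 1 without untreated 2 or SPARC 1, 5 without untreated 1 and falls 2 without SPARC 2.

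Receptors for complement and antibody shifted as well, beside the rise of C1ra. C5ar2, the decoy receptor of the anaphylatoxin, was lower (10.2, 21.0 and 24.9 CPM to 2.80, 6.20 and 5.76 CPM; -1.93 ± 0.42; not called without untreated 2 or 3 or SPARC 1 or 3, adjusted p 0.0539 to 0.0706). Fcgrt, the neonatal Fc receptor that rescues immunoglobulin from degradation, was 139.6, 38.4 and 61.4 CPM untreated and 15.3, 20.9 and 23.0 CPM with SPARC (-2.01 ± 0.42; -1.33 without untreated 1; not called without SPARC 1 or 2, adjusted p 0.0508 to 0.053), while Fcer1g rose. Among adhesion receptors Itgal, the alpha chain of LFA-1, rose from 164, 97.8 and 94.3 CPM to 309, 318 and 356 CPM (log2 fold change 1.46 ± 0.28, adjusted p = 0.0121) and was the steady member of 36 tested.

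Lysosomal genes did not move as a block. Acp5, tartrate-resistant acid phosphatase, a marker of osteoclasts and activated macrophages, rose from 110.2, 140.3 and 158 CPM to 725, 805 and 839 CPM (log2 fold change 2.54 ± 0.30, adjusted p = 0.00129) and Acp2, the housekeeping acid phosphatase, from 332, 268 and 290.2 CPM to 502, 472 and 497 CPM (0.73 ± 0.11). Engase, a cytosolic enzyme that the list also holds, and Slc46a3 fell. Those 4 were the steady calls among 74 tested genes, of which 4 rose and 6 fell (11 higher and 15 lower with the replicate block). That is 5.41% and 8.11%, beside 6.73% and 4.52% of all tested genes. Rises were 2 without untreated 3, SPARC 2 or 3 or IL4c SPARC 3 and falls 2 without untreated 3, 3 without untreated 2, SPARC 1, 2 or 3 or IL4c SPARC 1. In autophagy, Atg5 (0.47 ± 0.08) and Atg2b (0.32 ± 0.06) rose, and the kinase Ulk2 fell (104, 74.8 and 83.7 CPM to 51.4, 59.1 and 61.6 CPM; -0.61 ± 0.12), as the steady calls of 43 tested. Atg2b was not called with total-count scaling (adjusted p = 0.0586) or with limma on log2(FPKM + 1) (0.111), and Ulk2 not in the blocked fit on the TG libraries alone (adjusted p = 0.0772).

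With the replicate block, calls over all tested genes went from 6.73% to 14.3% higher and from 4.52% to 13.1% lower. Receptors for chemoattractants likewise had more calls: 4 rises and 1 fall of 38 without the block, 16 and 6 with it, and none steady. The count of rises was 0 without untreated 2 or 3 or SPARC 1, 1 without IL4c untreated 1 or IL4c SPARC 1, 2 without IL4c untreated 2 or IL4c SPARC 2, 13 without untreated 1. Ltb4r1, the leukotriene B receptor, was 2.15, 0.443 and 0.394 CPM untreated and 30.8, 6.23 and 5.85 CPM with SPARC (3.83 ± 0.91; 2.65 without SPARC 1 and 5.06 without untreated 1; not called without untreated 2 or 3 or SPARC 1, adjusted p 0.0597 to 0.088) and Gpr84, a receptor of medium-chain fatty acids, 8.58, 0.756 and 1.05 CPM untreated and 108, 14.3 and 17.0 CPM with SPARC (3.73 ± 1.02; 2.22 without SPARC 1 and 5.65 without untreated 1; not called without any 1 IL4c library, untreated 2 or 3 or SPARC 1, adjusted p 0.0533 to 0.13). In both the SPARC wells were well above the untreated well of the same number, and replicate 1 was several times higher than the others on each side. Ccr2, the receptor that brings monocytes into tissue, fell from 61.0, 32.5 and 30.0 CPM to 10.8, 18.0 and 11.8 CPM (-1.60 ± 0.36; not called without SPARC 1 or 3, adjusted p 0.0667 to 0.079).

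Costimulatory ligands gave 3 steady rises among 36 tested genes. Tnfsf13b (BAFF), the survival factor of B cells, rose from 3.21, 2.95 and 2.02 CPM to 11.6, 14.6 and 13.1 CPM (log2 fold change 2.26 ± 0.24, adjusted p = 7.52e-04). Tnfsf9, the ligand of CD137 on T cells, rose from 1.60, 1.33 and 1.42 CPM to 6.76, 6.17 and 6.70 CPM (2.17 ± 0.41). Lgals9, a galectin that binds checkpoint receptors, rose from 121, 64.2 and 69.1 CPM to 301, 285 and 273 CPM (1.75 ± 0.21). Vsir, Cd48 and Cd200r1, which restrain or tune myeloid cells and lymphocytes, were lower but not steady: Vsir by 0.69 ± 0.18 (not called without any 1 IL4c library, untreated 2 or 3 or SPARC 1, 2 or 3, adjusted p 0.0521 to 0.14), Cd48 by 0.55 ± 0.11 (not called without untreated 2, adjusted p = 0.0599) and Cd200r1 by 0.62 ± 0.16 (not called without untreated 2 or 3, SPARC 1, 2 or 3, IL4c untreated 1 or 2 or IL4c SPARC 1 or 3, adjusted p 0.0516 to 0.154). In all 5 rose and 3 fell (17 higher and 4 lower with the replicate block), with rises of 3 without untreated 3 or SPARC 2 or 3, 11 without untreated 1 and falls of 0 without untreated 2, 1 without untreated 3, SPARC 1, 2 or 3, IL4c untreated 1 or 2 or IL4c SPARC 1 or 3. MHC class II genes had no call among 20 in edgeR's quasi-likelihood test, 2 rises and 1 fall at an unadjusted p under 0.05, and 1 rise with DESeq2. Cd74, the invariant chain, was 3647, 688 and 682 CPM untreated and 1977, 641 and 854 CPM with SPARC (-0.53 ± 0.63, adjusted p = 0.654), with the libraries numbered 1, where B cell genes were also high, above the rest. The cathepsin Ctss was 3605, 7482 and 6464 CPM untreated and 2858, 7208 and 7001 CPM with SPARC (-0.04 ± 0.36), with overlapping groups.

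Genes of cell death and survival rose in 10 of 46 cases, 7 of them steady (median 0.29). Survival genes were Bcl2a1a, Bcl2a1d (1.90 ± 0.31), whose reads the copies may share, and Cflar, the caspase 8 inhibitor (1.05 ± 0.14). Death effectors rose beside them: Mlkl, the executioner of necroptosis, from 17.1, 20.1 and 12.6 CPM to 49.8, 52.6 and 43.3 CPM (log2 fold change 1.55 ± 0.20, adjusted p = 0.00215), Daxx from 38.7, 30.9 and 27.3 CPM to 77.5, 76.6 and 69.7 CPM (1.21 ± 0.14) and the inflammatory caspase Casp4 by 1.13 ± 0.19. Mlkl, Daxx and Casp4 are also known to respond to interferon, as are Batf2, Lgals9 and Tnfsf13b. Of these 6, Lgals9 and Tnfsf13b were among the reference families and the other 4 were not. Bcl2l11 (BIM), which starts mitochondrial apoptosis, was the fall, from 110.3, 126 and 133 CPM to 43.3, 66.6 and 67.6 CPM (-1.06 ± 0.26; not called without untreated 2 or 3, SPARC 1, 2 or 3 or IL4c SPARC 1, adjusted p 0.058 to 0.104). Without untreated 1 there were 17 rises and 6 falls, and with the block 21 and 3.

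Transcription factors went both ways: 7 of 73 rose and 9 fell, 6 and 4 steady. Cebpb, a driver of myeloid inflammatory and arginase gene expression, rose from 150.4, 136 and 156 CPM to 459.9, 282 and 349 CPM (log2 fold change 1.30 ± 0.19, adjusted p = 0.00353). Batf2 rose from 8.77, 6.15 and 2.78 CPM to 20.3, 28.1 and 22.0 CPM (1.99 ± 0.33) and Maff, a small MAF protein that partners NRF2, from 1.44, 2.87 and 2.15 CPM to 5.06, 8.93 and 6.47 CPM (1.66 ± 0.31). The other steady rises were Elk3 (1.06 ± 0.21), Rbpj, the effector of Notch signalling (0.76 ± 0.15), and Mafg (0.41 ± 0.08). Myc fell from 10.1, 8.99 and 9.40 CPM to 4.78, 5.31 and 5.38 CPM (log2 fold change -0.88 ± 0.16, adjusted p = 0.00914) and Id3 from 17.8, 30.1 and 33.3 CPM to 6.64, 4.51 and 6.20 CPM (log2 fold change -2.23 ± 0.23, adjusted p = 7.13e-04). Without untreated 1 the factors had 11 rises; their falls were 4 without SPARC 1, 5 without untreated 3 or SPARC 3, and the block gave 18 and 16.

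The other steady falls among factors were Nr1d1 and Nr1d2, of the circadian clock, in which REV-ERB receptors repress the core activators and PAR-domain factors carry the rhythm to output genes. Nr1d2 (REV-ERB beta) fell from 85.2, 73.0 and 86.3 CPM to 19.3, 20.0 and 26.7 CPM (log2 fold change -1.89 ± 0.17, adjusted p = 3.69e-04). Nr1d1 (REV-ERB alpha) fell from 16.8, 4.56 and 7.17 CPM to 2.07, 0.632 and 1.53 CPM (log2 fold change -2.76 ± 0.54, adjusted p = 0.0127; -2.07 without untreated 1). Dbp, a PAR-domain factor, fell from 35.2, 11.0 and 24.8 CPM to 4.17, 4.25 and 6.20 CPM (log2 fold change -2.28 ± 0.42, adjusted p = 0.01). Nr1d2 was even within each group; the other genes had high untreated values in replicate 1, and none overlapped. Of 19 clock genes 5 fell, and Cry1, a repressor of the loop, rose from 7.52, 10.8 and 12.1 CPM to 16.2, 17.7 and 19.8 CPM (0.82 ± 0.17; not called without SPARC 2 or 3, adjusted p 0.0557 to 0.0676). The activators Arntl (-0.18 ± 0.21, adjusted p = 0.635) and Clock (-0.26 ± 0.10, adjusted p = 0.112) were not called. Falls numbered 3 without untreated 3 or SPARC 1, 2 or 3, and 8 with the block; the labels give no time of day for the lavage or the lysis.

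Several large groups showed few calls. Of 77 cytosolic ribosomal proteins, 1 was called, Rpl10a (-0.49 ± 0.14; not called without untreated 1, 2 or 3, SPARC 2 or 3, IL4c untreated 1 or 2 or IL4c SPARC 1, 2 or 3, adjusted p 0.0509 to 0.13). Of 61 cell cycle and replication genes, 1 rose and 2 fell, with none steady, and of 60 actin and motility genes the steady calls were Cdc42ep2, an effector of CDC42 (5.63, 6.34 and 7.17 CPM to 20.4, 25.8 and 22.7 CPM; 1.85 ± 0.26), and Dock2, a RAC activator (349.9, 309 and 333 CPM to 257, 242 and 242 CPM; -0.42 ± 0.08). In ribosome biogenesis and translation Eif4e, the cap-binding protein, rose (52.8, 71.9 and 71.2 CPM to 105, 97.6 and 102 CPM; 0.64 ± 0.12). Tlr4, the endotoxin receptor, was 128, 166 and 141 CPM untreated and 122, 156 and 141 CPM with SPARC and was not called (-0.06 ± 0.12, adjusted p = 0.814).

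Markers of other cells moved with treatment in part. S100a8, an alarmin of neutrophils and activated macrophages, rose from 11.4, 8.13 and 6.57 CPM to 51.6, 30.4 and 27.5 CPM, a steady call (log2 fold change 2.07 ± 0.29, adjusted p = 0.00353), while its neutrophil partner S100a9 had at most 3 counts. Ly6c2, a monocyte marker and interferon-responsive gene, was 14.2, 0.991 and 0.499 CPM untreated and 189, 227 and 197 CPM with SPARC (5.27 ± 1.26; 8.09 without untreated 1; not called without untreated 2 or 3 or SPARC 2 or 3, adjusted p 0.0537 to 0.0688). The acute-phase protein gene Saa3 was 6335, 344 and 479 CPM untreated and 33213, 7926 and 9940 CPM with SPARC and was not called (2.83 ± 1.05, adjusted p = 0.114), though the replicate block gave 0.00177. No gene of the B cell, T and NK, or eosinophil and mast cell lists was called in edgeR's quasi-likelihood test; at an unadjusted p under 0.05 there were 1, 0 and 0 calls, with DESeq2 0, 0 and 0, and with the block 13 lower, 2 higher and 1 lower, and 2 lower. Ighm was 1356, 86.9 and 102 CPM untreated and 1257, 42.9 and 77.8 CPM with SPARC: it was far higher in the libraries numbered 1 and lower with SPARC within each number, as was the sum of the B cell genes.

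To place these changes, the same contrast was read in the IL4c macrophages, whose wells are other samples in the same fit. Both contrasts use a shared estimate of each gene's spread. Genes of low spread are thus easier to call in both, so shared calls are not separate evidence. In IL4c cells SPARC raised 15.1% of all tested genes and lowered 12.7%. Of the 284 steady TG rises not set aside, 263 (92.6%) were also called higher in IL4c and none lower; of the 169 steady falls, 155 (91.7%) were called lower and none higher. Direction was shared by 279 of the rises and 167 of the falls. The difference between the injections itself, tested gene by gene, passed in none of 15232 genes with edgeR (smallest adjusted p 0.0616), with 1612 at an unadjusted p under 0.05, 364 with DESeq2, 16 with limma on FPKM and 472 with the replicate block. It passed in 278 without TG untreated 1, in 84 without TG SPARC 1 and in 836 without both TG libraries numbered 1.

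Individual genes nonetheless had unlike values in the 2 kinds of macrophage. Arg1 rose by 2.55 ± 0.46 in TG cells and was -0.98 ± 0.44 in IL4c cells (adjusted p = 0.123), in which mean levels were 5085 ± 2146 CPM untreated and 2577 ± 814 CPM with SPARC (SD, n = 3). The difference had an adjusted p of 0.147, and 0.0225 with the block. Fth1 was 0.44 ± 0.22 (adjusted p = 0.158) and Clec10a -0.95 ± 0.33 (adjusted p = 0.0557) in IL4c cells, and neither difference passed (0.324 and 0.169). Lcn2 and Timp1 rose in IL4c cells by 7.82 ± 1.26 and 5.31 ± 0.46, and Gas6, Trf and Nr1d2 were -3.60 ± 0.52, -1.35 ± 0.22 and -1.49 ± 0.17. The scatter of the 2 responses shows most steady genes in the quadrants of shared direction.

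**Figure D5:**
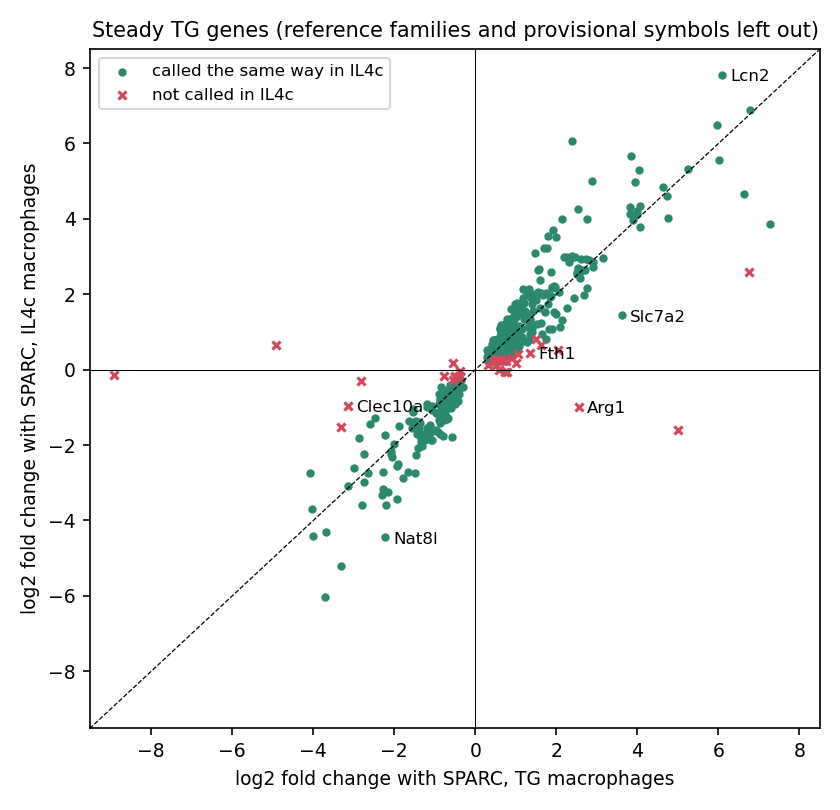
Log2 fold change with SPARC in IL4c macrophages against that in TG macrophages for the 284 steady rises and 169 steady falls of TG cells left after the reference families and provisional symbols were set aside; the dashed line marks equal changes. Filled points were called the same way in IL4c cells (263 and 155 genes), crosses were not, and Arg1 lies below 0 on the vertical axis.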

How the data were processed

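Deposited tables give an expected count and an FPKM value per gene for each of 12 libraries. Per the submitters' processing notes, bcl2fastq 1.8.4 (CASAVA), STAR and RSEM were used. The authors' expected counts need not be whole. Of all entries of the 12 libraries, those of 0 included, 7.97% were not, and the counts were rounded for the tests. The FPKM values deposited by the authors are normalised for gene length and depth. The sources used here give no genome build, strand setting, or STAR and RSEM versions. Gene IDs matched the GENCODE annotation of GRCm38 for 99.1% of genes (82.1% with the version), and positions and biotypes come from it.

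Genes kept by filterByExpr (minimum count 10; 15232 of 47729) were scaled with TMM and fitted in edgeR 4.0.16 (R 4.3.3; robust quasi-likelihood, 4 groups, 8 residual degrees of freedom), with Benjamini-Hochberg adjustment over all tested genes. All 12 libraries enter so that the groups share an estimate of spread. Alternatives were DESeq2 1.42.0, limma 3.58.1 on log2(FPKM + 1) and log2(FPKM + 0.1), other scalings and filters, the TG libraries alone, each library left out, and a replicate block. The block was taken as a pairing because libraries of the same number deviated together. Over genes, their deviations from group means correlated at 0.735, 0.599 and 0.533. Unlike numbers reached 0.507 (untreated 2 with SPARC 3) and 0.448 (untreated 3 with SPARC 2). Unlike pairs that held a replicate 1 ran from -0.659 to -0.579. These values set replicate 1 apart but hardly tell 2 from 3, and the labels state no pairing. The shallowest TG library holds 32104198 counts, and 3 counts correspond to at most 0.0914 CPM. The main fit was tested on simulated counts. These held no offset shared by replicates and no pairing, so that test does not cover such features of the data.

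The members, the 45 gene lists and the rules were chosen with earlier results of these data known. Genes in the text follow a rule: the 10 largest steady rises and falls with a mean of at least 10 CPM among genes not set aside, up to 3 called members per list and direction by smallest p, the most abundant called genes not set aside, and 12 genes of interest. A few results are not reported here. Other steady list members and uncalled genes named beside them (for example Mthfd2, Prdx5, Egln1, Gys1, Vegfa, Nqo1, Saa3 and Mertk) were chosen after their values were seen. Markers of 8 lists of cells were summed in CPM.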

Additional observations from a re-analysis of the deposited data

Results flagged for a closer look

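In every replicate number, the change with SPARC had opposite signs in the 2 kinds of macrophage for Arg1 and Stab1. For Stab1 the TG change was small and not called, and it ran from -0.29 to 0.02 with 1 library left out. For Arg1, the log2 fold change with SPARC was 2.55 in TG cells and -0.98 in IL4c cells, a difference (TG minus IL4c) of 3.53 with an adjusted p of 0.147 in the edgeR test of that difference and of 0.0225 with the replicate block. For Stab1, the changes were -0.13 and 1.19, a difference of -1.32 with an adjusted p of 0.23, and of 0.0225 with the replicate block. Neither difference therefore passed without the block.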

How the results depend on the processing

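With SPARC, 1025 genes were called higher and 689 lower in TG macrophages, and the difference between injections passed for 0 genes. RLE scaling gave 1052 and 677, the strict filter of 5 CPM 981 and 755, log2(FPKM + 1) 745 and 821, and log2(FPKM + 0.1) 760 and 815. Total-count scaling gave 758 and 938, so that the share of calls that were higher moved from 59.8% to 44.7%; without a filter (864 and 365) it was 70.3%. DESeq2 called 1514 and 1118, the replicate block 2175 and 1990, the TG libraries alone 367 and 138, and these with the block 1324 and 979. Without both TG libraries numbered 1 the counts were 1343 and 917, and 2360 and 1891 with the block, an alternative chosen after seeing the data. Unfiltered log2(FPKM + 1) values gave 495 and 506, and a fold minimum of 2 left 500 and 186. With 1 library left out at a time, 475 to 1279 genes were higher and 262 to 816 lower, the fewest without TG untreated 3 and the most without TG untreated 1. For genes whose SPARC difference differs between injections, RLE scaling also gave 0 genes, total-count scaling 2, no filter 2, the strict filter 3, the block 472, DESeq2 364, and the fit without both TG libraries numbered 1 836 (2678 with the block); leaving out 1 library gave 0 to 278. The cause of these shifts was not tested, beyond the fewer libraries in the smaller fits. Of 606 steady genes, the count of those keeping their call was 598 with total counts, 604 with DESeq2, 558 with the strict filter, 561 with log2(FPKM + 1) and 362 with the TG libraries alone; 0 were called in the other direction. The replicate block ended the call of 0 of 173 named genes and added 7. Only genes not called reversed direction. Ctss (-0.04) was 0.05 without both TG libraries numbered 1, blocked or not, 0.31 without SPARC 1, 0.21 without untreated 2, 0.05 without untreated 3 and -0.28 without untreated 1. Cd74 (-0.53) was 0.15 without both numbered 1 (0.13 with the block) and ran from -1.10 to 0.74 with 1 library left out. The same range was -3.03 to 2.24 for Ighm, -3.04 to 2.15 for Igkc, -0.76 to 2.42 for Lck, -3.01 to 0.80 for Il5ra, -0.38 to 0.75 for Sparc, -0.29 to 0.02 for Stab1 and -0.14 to 0.09 for Tlr4. With 3 wells a group, the spread between wells limits these calls: the biological coefficient of variation was 0.308.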

Other observations

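Some of the most abundant called genes not set aside belong to none of the functions described above. Cybb, the catalytic subunit of the phagocyte NADPH oxidase, was 2831, 1711 and 1272 CPM untreated and 4458, 4717 and 4165 CPM with SPARC (log2 fold change 1.20 ± 0.28, adjusted p = 0.0239 with edgeR); it was not called without untreated 2, untreated 3 or SPARC 2 (adjusted p 0.0597 to 0.0671). Snx5, a sorting nexin of endosomes and macropinosomes, was 606, 697 and 668 CPM untreated and 249.9, 482 and 412 CPM with SPARC (-0.78 ± 0.20, adjusted p = 0.0329; not called without untreated 2 or 3, SPARC 3, IL4c untreated 1 or 2 or IL4c SPARC 1, 2 or 3, adjusted p 0.0523 to 0.13). The RNA helicase gene Ddx5 (-0.38 ± 0.10) and the splicing-related gene Rsrp1 (-0.56 ± 0.13) were also lower (not called without untreated 2 or 3, SPARC 1, 2 or 3, IL4c untreated 1 or 2 or IL4c SPARC 1 or 3, adjusted p 0.057 to 0.13, for Ddx5; not called without untreated 2 or 3 or SPARC 1 or 2, adjusted p 0.0519 to 0.0794, for Rsrp1).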
